A study of Mus musculus with 2 samples.

Results

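The 27 genes described here make, sense, take up or store cholesterol. They were taken as a fixed list of names and were looked up among the 19073 features of both count matrices, where all 27 were found. Of these, 17 encode enzymes of cholesterol synthesis, and 4 encode the transcription factor SREBP-2 or proteins that control it. Another 4 serve uptake and trafficking, and 2 esterify cholesterol. In hepatocytes 25 of the 27 passed a minimum of 5 CPM (the UMIs of a gene scaled to the total UMIs of the summed cells) in either library, a level reached by 8952 features in all.

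The cells came from livers of male, heterozygous p16-Tom mice on a C57BL/6 background, which carry p16-CreERT2 and R26-CAG-LSL-tdTomato-WPRE, so that tamoxifen switches on the red reporter tdTomato for good in cells that use the p16 promoter. All mice received CCl4, a liver toxin that harms the cells around the central vein, by repeated injection for 4 weeks, together with tamoxifen. After fixation and dissociation, cells positive for Hoechst and MitoBrilliant 646 were sorted into Tom- (p16low) and Tom+ (p16high) fractions, each of which gave 1 library. The age of the mice and the number behind each library are not given in the sources used here, no oil-treated or reporter-free library was analysed here, and each difference given is one between 2 single libraries, with no replicate check of the condition.

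Cholesterol is built from acetyl-CoA along the mevalonate pathway. Early enzymes make farnesyl diphosphate, the squalene enzymes join and cyclise it to lanosterol, and the late enzymes trim and desaturate lanosterol to cholesterol. When sterols in the endoplasmic reticulum are low, SCAP escorts SREBP-2 to the Golgi, where it is cleaved and released to switch on the genes of the pathway, while the INSIG proteins hold SCAP back when sterols are high. Hepatocytes are a main site of this synthesis, and they also take up cholesterol, esterify it and turn it into bile acids.

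Hepatocytes were the cells left after the study's filters and after clusters with low gene number or with Ptprc, Dcn or Pecam1 had been removed. There were 10890 Tom- cells with a median of 32260.5 UMIs and 9958 Tom+ cells with a median of 35340 UMIs. Checked against the label, 6 hepatocyte markers summed to 148320 CPM in Tom- and 140900 CPM in Tom+ hepatocytes, of which Alb gave 117910 and 108000 CPM. Alb was as high in some clusters left out for other markers, so it does not set hepatocytes apart here. Among the cells kept, 3 clusters were led by genes of other liver cells: one of 729 Tom- and 1557 Tom+ cells with Lyz2, Clec4f, C1qb, Col1a2 and Col3a1 among its leading genes, one of 146 and 49 cells with Sod3 and collagen genes, and one of 56 and 18 cells with Spp1, Krt19 and Epcam. Without these clusters the numbers of members past the fold in the gradients (3 and 1 in Tom-, 2 and 2 in Tom+), past it in Tom+ over Tom- (1 and 0) and of enzymes that co-varied (17) were as given here. Markers of other cells were low but not at 0, with 8 macrophage markers at 212.66 and 182.36 CPM, 8 endothelial markers at 76.5 and 57.2 CPM and 8 stellate markers at 48.3 and 50.8 CPM, and no marker of these lists was at 0. Across position bins the macrophage sum ranged from 148 to 269 CPM in Tom- and from 115 to 225 CPM in Tom+, the stellate sum from 30.9 to 70.2 and from 25.9 to 61.2 CPM, the endothelial sum from 61.6 to 81.2 and from 45.5 to 67.7 CPM, and the sum of 4 bile duct markers from 0.531 to 5.96 and from 0.962 to 8.72 CPM. The part of this RNA in the gradients was not tested. The reporter matched the sort, with tdTomato at 72.9 CPM in Tom- and 813 CPM in Tom+ hepatocytes. The same barcode occurred in both libraries 503 times. Probes rather than whole transcripts were read, so levels of different genes cannot be ranked against each other.

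Lobule position was scored in each cell from 15 pericentral and 12 periportal landmark genes, none of which is described here as a result, and the cells were cut into 8 bins from 1 (next to the central vein) to 8 (next to the portal tract). Glul, the glutamine synthetase of the innermost pericentral layer, fell from 461 CPM in bin 1 to 5.77 CPM in bin 8 of the Tom- library, and Cyp2f2, a periportal cytochrome P450, went from 25.7 to 466 CPM. Both are landmarks of the score, so their slopes follow from how the bins were cut and are no separate check of them. Tom+ cells crowded at the pericentral end, with 1968 cells in bin 1 and 596 in bin 8, against 570 and 2071 Tom- cells. This is why Tom+ and Tom- cells were compared within bins.

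The promoters of 6 members that the results turn on are printed first, to show the start regions of genes that followed the pathway from cell to cell beside those of genes that did so little or not. Windows from 250 bases before to 50 bases after an annotated start (RefSeq, GRCm38.p6) were matched for 21 of the 27 members and not for Fdps, Fdft1, Sqle, Npc1, Stard4 and Soat2. Capitals mark CCAAT, the box bound by NF-Y, a cofactor of SREBP-2, read on either strand (ATTGG is its reverse), and in Hmgcs1 also the run in which the sterol element CACCCCAC and the looser TCANNCCAC overlap. Hmgcs1 and Msmo1 stand for enzymes with high co-variation, Lss for the largest Tom+ difference, Insig1 and Insig2 for the periportal gradient, and Ebp for the enzyme that co-varied least. Insig2 has 3 such windows, of which the most upstream is shown; the other 2 hold no CCAAT.
Hmgcs1, chr13:119690101-119690400 (plus strand): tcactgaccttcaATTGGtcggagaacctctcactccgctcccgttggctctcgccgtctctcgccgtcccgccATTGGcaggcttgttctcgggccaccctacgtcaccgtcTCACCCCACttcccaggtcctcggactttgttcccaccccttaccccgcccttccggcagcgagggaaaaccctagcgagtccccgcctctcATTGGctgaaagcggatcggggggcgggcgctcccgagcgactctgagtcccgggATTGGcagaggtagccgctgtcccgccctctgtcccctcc
Msmo1, chr8:64733529-64733828 (minus strand): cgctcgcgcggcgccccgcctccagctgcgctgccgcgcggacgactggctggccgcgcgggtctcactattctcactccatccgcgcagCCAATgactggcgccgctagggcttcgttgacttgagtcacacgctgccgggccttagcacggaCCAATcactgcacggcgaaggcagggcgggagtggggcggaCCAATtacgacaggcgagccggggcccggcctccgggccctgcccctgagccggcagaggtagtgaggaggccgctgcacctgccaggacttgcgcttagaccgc
Lss, chr10:76531355-76531654 (plus strand): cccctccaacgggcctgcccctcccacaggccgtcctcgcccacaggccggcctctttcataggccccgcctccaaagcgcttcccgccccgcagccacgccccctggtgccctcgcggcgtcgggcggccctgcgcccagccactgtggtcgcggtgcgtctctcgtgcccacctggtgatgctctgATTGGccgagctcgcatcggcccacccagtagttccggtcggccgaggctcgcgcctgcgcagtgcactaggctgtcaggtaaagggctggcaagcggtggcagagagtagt
Insig1, chr5:28071162-28071461 (plus strand): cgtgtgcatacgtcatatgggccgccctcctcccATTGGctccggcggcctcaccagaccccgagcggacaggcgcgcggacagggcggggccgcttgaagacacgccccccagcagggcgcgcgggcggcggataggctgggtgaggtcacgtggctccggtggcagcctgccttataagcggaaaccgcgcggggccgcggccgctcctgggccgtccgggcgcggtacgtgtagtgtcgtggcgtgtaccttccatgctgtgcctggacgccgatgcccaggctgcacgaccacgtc
Insig2, chr1:121332540-121332839 (minus strand): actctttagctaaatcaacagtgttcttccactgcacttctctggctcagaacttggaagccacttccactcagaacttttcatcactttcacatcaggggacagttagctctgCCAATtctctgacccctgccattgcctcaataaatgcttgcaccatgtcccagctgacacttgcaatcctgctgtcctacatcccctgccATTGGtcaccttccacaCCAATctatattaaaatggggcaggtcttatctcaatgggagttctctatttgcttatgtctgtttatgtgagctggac
Ebp, chrX:8193463-8193762 (minus strand): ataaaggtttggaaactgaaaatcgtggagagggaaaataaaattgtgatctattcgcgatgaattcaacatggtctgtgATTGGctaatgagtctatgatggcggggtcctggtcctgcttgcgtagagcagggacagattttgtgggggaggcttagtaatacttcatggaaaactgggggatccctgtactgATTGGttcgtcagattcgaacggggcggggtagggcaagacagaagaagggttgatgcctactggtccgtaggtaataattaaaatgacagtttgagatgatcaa

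CCAAT stood in at least 1 window of 19 of the 21 members (90.5%), some of which have more than 1 annotated start and window, against 43.1% of the 7107 expressed genes that have a window and 41.1% of all 27025 genes in the table. Hmgcs1 held it 4 times and Msmo1 3 times, while Mvk held it 5 times, Nsdhl 4 times and Lss 1 time. Whether its number goes with co-variation was not tested. GGGCGG, the Sp1 box, stood in a window of 18 of 21 members (85.7%) against 70.6% of expressed genes, and CACGTG, the E-box, in 5 (23.8%) against 12.5%. The sterol elements were rare as spelled: CACCCCAC matched in Acat2 and Hmgcs1 (9.52% of members, 3.6% of expressed genes) and TCANNCCAC in Hmgcs1 and Mylip (9.52% and 4.6%). All motifs were read on both strands, and a match is a string of letters and not a measured site. Ebp, the enzyme with the weakest co-variation, held CCAAT 2 times.

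The first question was where in the lobule each gene is used. For each gene the 2 periportal bins together were set over the 2 pericentral bins, in each library on its own, and a gene was counted when the ratio passed 1.5-fold. In the Tom- library 3 of 25 members were higher periportally (Mvd, Insig1 and Insig2), where 4.88% of all genes tested were, and 1 was higher pericentrally (Npc1), against 9.48% of all genes. In the Tom+ library 2 were higher periportally (Insig1 and Insig2), against 4.93%, and 2 pericentrally (Npc1 and Soat2), against 11.2%. None of the squalene and late enzymes passed the fold in either library on this scale, set by total UMIs. The median log2 ratio of the 25 members was 0.15 in Tom- and 0.07 in Tom+, beside -0.16 and -0.21 for all genes. When each gene was taken relative to that shift of all genes, 4 members in Tom- (Mvd, Lss, Insig1 and Insig2) and 6 in Tom+ (Mvd, Sqle, Ebp, Dhcr7, Insig1 and Insig2) were past the fold periportally, against 6.98% and 7.53% of all genes. On that scale 1 and 0 were past it pericentrally, against 6.43% and 6.24%. Without 2 clusters that were at least 90% Tom+, 4 members passed it periportally in Tom+, with Mvd (0.76) and Sqle (0.59) added, against 5.18% of all genes.

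Of the 7 early mevalonate enzymes, 3 had ratios above 0 in Tom- and 2 in Tom+, where 2498 and 2026 of all 8952 genes did. Mvk, mevalonate kinase, stood at 78.7 CPM in bin 1 and 60.9 CPM in bin 8 of the Tom- library, and at 83.9 and 59.6 CPM in Tom+. Its log2 ratio was -0.31 (95% counting interval -0.37 to -0.25) in Tom- and -0.46 (-0.51 to -0.40) in Tom+. Intervals given here cover counting error only, not the spread between mice. Fdps, which makes farnesyl diphosphate, behaved alike, going from 334 to 269 CPM in Tom- and from 419 to 306 CPM in Tom+, with log2 ratios of -0.25 and -0.44.

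Mvd, which decarboxylates mevalonate diphosphate, went the other way. It was lowest in bin 1, at 13.2 CPM in Tom- and 14.0 CPM in Tom+, and highest in bin 5, at 22.7 and 22.9 CPM, staying near that level to the portal end. The log2 ratio was 0.59 (0.47 to 0.72) in Tom-, just past 1.5-fold, and 0.47 (0.37 to 0.57) in Tom+, just short of it. Pmvk, phosphomevalonate kinase, had smaller periportal ratios of 0.28 and 0.27. Hmgcs1, the HMG-CoA synthase, peaked in bin 5 of Tom- at 428 CPM, above bin 1 (375 CPM) and bin 8 (350 CPM). In Tom+ bin 5 (420 CPM, 414 to 427) was also highest, but its counting interval overlapped that of bin 1 (414 CPM, 409 to 419). Its log2 ratios were -0.06 in Tom- and -0.27 in Tom+. Acat2, the thiolase of the first step, and Idi1, the isopentenyl diphosphate isomerase, had ratios between -0.26 and 0.02. The signs of Acat2, Hmgcs1 and Msmo1 in Tom- and of Idi1, Scap and Lcat in Tom+ turned positive when taken relative to all genes.

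**Figure D1:**
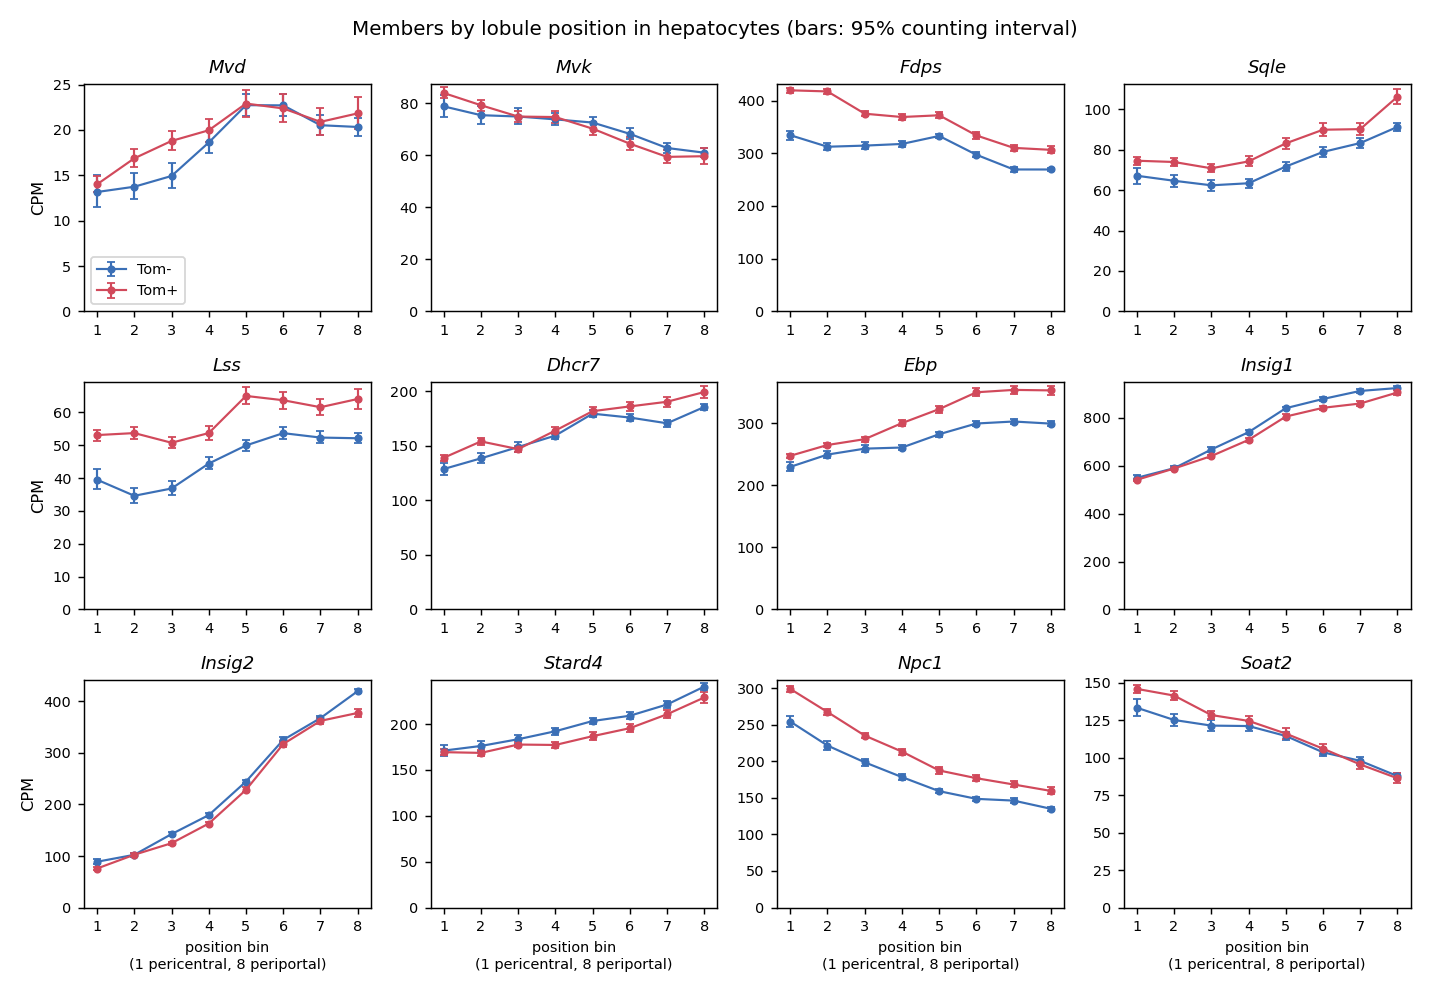
Level of 12 members in hepatocytes by lobule position. The horizontal axis is the position bin from 1 (pericentral) to 8 (periportal), the vertical axis CPM from 0, points are sums over the cells of a bin in the Tom- (blue) and Tom+ (red) library, and bars are 95% counting intervals. Insig2 rises along the whole lobule in both libraries and Npc1 falls, while Fdps, Lss and Npc1 run higher in Tom+ in all 8 bins.

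Of the 10 squalene and late enzymes 9 had ratios above 0 in each library, none past the fold on the scale of total UMIs. Sqle, squalene epoxidase, was at 67.1 CPM in bin 1 and 91.3 CPM in bin 8 of Tom-, and at 74.5 and 106 CPM in Tom+, with log2 ratios of 0.42 and 0.38. Lss, which cyclises the epoxide to lanosterol, had ratios of 0.52 in Tom- and 0.23 in Tom+. Fdft1, squalene synthase, was nearly level, at 0.07 and 0.05.

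Of the 7 late enzymes, 6 had ratios above 0 in each library, all but Msmo1, beside the same 2498 and 2026 of 8952 genes. Sc5d, the sterol C5-desaturase, reached 0.42 and 0.31, Dhcr7, which reduces 7-dehydrocholesterol to cholesterol, 0.41 and 0.41, and Ebp, the sterol isomerase, 0.31 and 0.47. Nsdhl and Hsd17b7, which act with Msmo1 in removing methyl groups from the sterol ring, were at 0.31 and 0.19 in Tom- and 0.13 and 0.07 in Tom+, and Tm7sf2, a sterol reductase, at 0.15 and 0.11. Msmo1, the methylsterol monooxygenase, was at -0.10 and -0.32. Summed over all 17 enzymes, the pathway's content was lowest at the central vein in Tom- (2595.2 CPM in bin 1) and highest in bin 5 (3081 CPM). In Tom+ it ranged from 2918.1 CPM in bin 3 to 3224.2 CPM in bin 5.

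Of the SREBP control genes both INSIG genes rose toward the portal tract, and Insig2 had the steepest gradient of the 25 members in both libraries. Insig2 (chr1:121304353-121332589, minus strand, GRCm38) rose through the 8 bins of the Tom- library from 88.9, 102, 143, 179, 244, 325 and 368 to 420 CPM. In Tom+ it rose from 75.8, 103, 125, 163, 228, 317 and 362 to 378 CPM. Each bin lay above the one before it in both libraries. The periportal level was 4.09-fold the pericentral one in Tom- (log2 2.03, 1.99 to 2.08) and 4.16-fold in Tom+ (2.06, 2.02 to 2.09). Insig1 (chr5:28071363-28078662, plus strand), the form that SREBP-2 itself induces, rose from 550 to 925 CPM in Tom- and from 541 to 906 CPM in Tom+, or 1.6-fold and 1.56-fold.

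The other control genes did not share that slope. Srebf2, which encodes SREBP-2, had log2 ratios of -0.16 and -0.30, and Scap, its escort, -0.23 and -0.16. Both were nearer level than the INSIG genes, and neither passed the fold.

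Trafficking and storage genes split between the ends. Npc1, which exports cholesterol from lysosomes, fell from 254 CPM in bin 1 to 135 CPM in bin 8 of Tom-, and from 299 to 159 CPM in Tom+, with pericentral levels 1.67-fold and 1.72-fold the periportal ones. Soat2, which esterifies cholesterol in the endoplasmic reticulum, fell from 133 to 87.8 CPM and from 146 to 86.3 CPM, past the fold only in Tom+ (log2 -0.48 in Tom-, -0.65 in Tom+). Whether the libraries differed in that slope was not tested. Stard4, a soluble sterol carrier, rose instead, from 171 to 241 CPM and from 169 to 229 CPM (0.42 and 0.37), and Lcat, the secreted esterifying enzyme of plasma, was nearly level (-0.17 and -0.09).

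The pair that fell under the minimum was hardly read in hepatocytes. Npc1l1, a sterol transporter of the gut, gave 2 UMIs in 10890 Tom- cells and 4 UMIs in 9958 Tom+ cells. Mylip, a ubiquitin ligase that marks lipoprotein receptors for degradation, gave 526 and 384 UMIs, or 1.35 and 0.97 CPM.

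The second question was whether single cells at one position differ in the pathway as a whole. Each gene's log-normalised value, less the mean of its position bin, was correlated over cells with the mean of the other enzyme genes. These correlations describe 10890 Tom- and 9958 Tom+ cells that share library, depth and free RNA, and they carry no p-value. A correlation of at least 0.1 in both libraries was found for 20 of 25 members, against 1.4% of all genes. These were all 17 enzymes with Srebf2, Insig1 and Stard4. Ebp lost its place with cells thinned to equal depth, at 0.095 in Tom- and 0.076 in Tom+. The median over the enzymes was 0.36 in Tom- and 0.38 in Tom+, where the middle of all genes lay at -0.01 and the 99th percentile at 0.13 (mean of both libraries). With cells thinned to equal depth the enzyme medians were 0.217 and 0.216.

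Hmgcs1 had a correlation with the rest of 0.61 in Tom- and 0.62 in Tom+. Fdft1 (0.59 and 0.62), Fdps (0.55 and 0.62) and Msmo1 (0.54 and 0.57) were close to it, so that the high values came from the early, the squalene and the late steps alike. Counting noise lowers such values for genes with few UMIs. With that noise subtracted, UMI shares in place of log values were set against the summed shares of the other enzymes. The correlation was then 0.84 and 0.84 for Hmgcs1, 0.86 and 0.87 for Fdft1, 0.86 and 0.86 for Msmo1 and 0.67 and 0.68 for Mvd. Fdft1 and Msmo1 thus stood above Hmgcs1, and which of these changes moved the order was not tested. Mvd had been detected in only 44.9% and 45.1% of cells. The median over all 136 enzyme pairs was 0.59 in each library. Pairs of an early with a squalene or late enzyme (0.58 and 0.58) were about as close as pairs of early enzymes (0.65 and 0.60) or of later ones (0.57 and 0.57).

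Ebp stood apart from the other 16 enzymes. Its correlation was 0.19 in Tom- and 0.17 in Tom+, and 0.42 and 0.29 with noise subtracted, the lowest of all enzymes on both scales. It was detected in 98.5% and 98.6% of cells. Its spread between cells with counting noise removed, as a coefficient of variation, was 0.17 and 0.20, the smallest of the enzymes, where Hmgcs1 had 0.48 and 0.49 and Mvd 0.64 and 0.74.

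**Figure D2:**
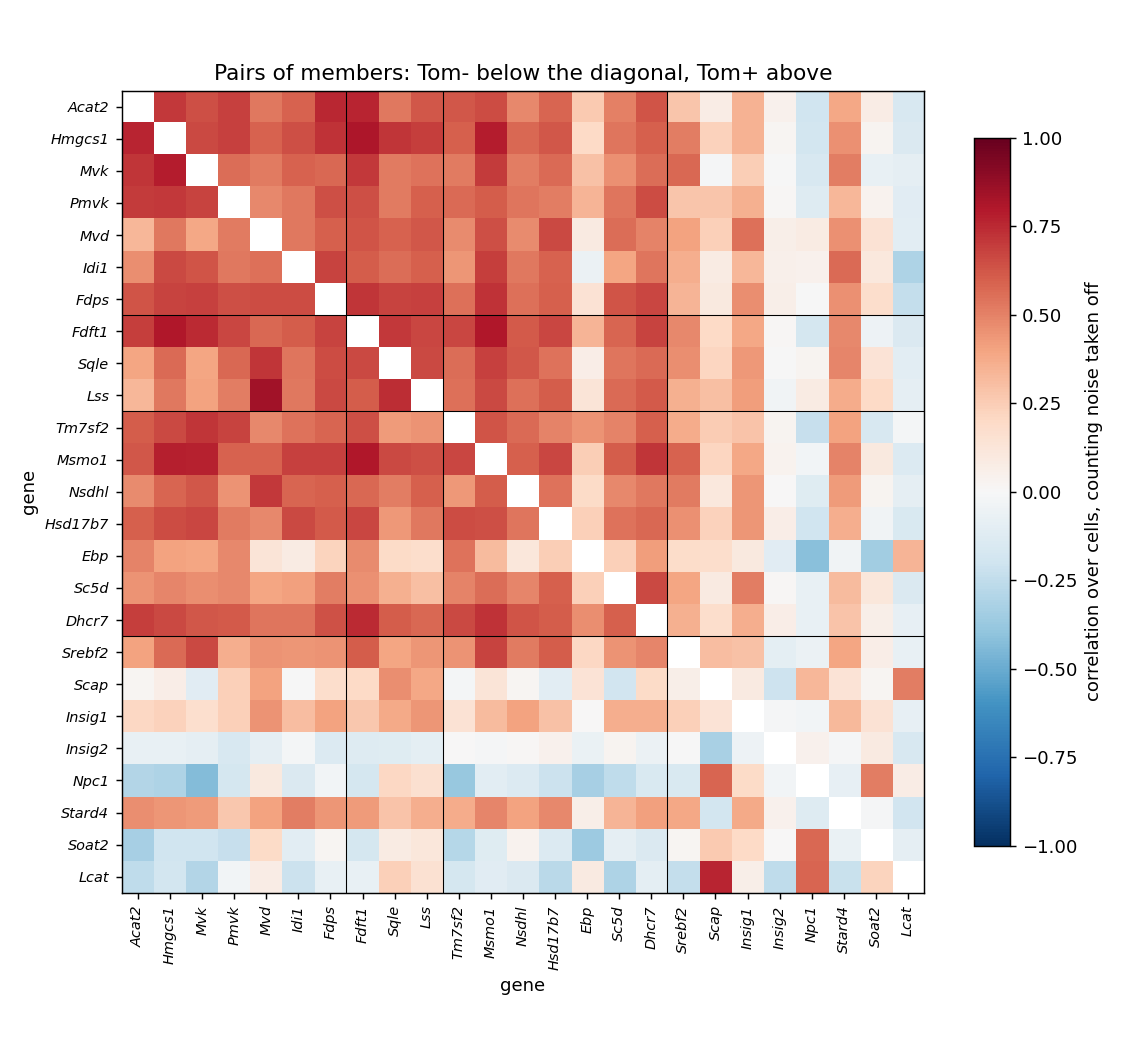
Correlation over hepatocytes of each pair of the 25 members, after removing position-bin means and subtracting counting noise. Both axes list the genes in pathway order, cells below the diagonal are Tom- and above it Tom+, colour runs from -1 (blue) to 1 (red), and lines part the early, squalene, late and remaining genes. The 17 enzymes form a red block with a median of 0.59 in each library, with a pale row for Ebp.

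Among the controls, Insig1 and Srebf2 moved with the enzymes, Scap did so weakly and Insig2 hardly. The correlation with the enzyme mean was 0.25 and 0.34 for Insig1 and 0.29 and 0.26 for Srebf2, but -0.02 and 0.04 for Insig2 and 0.05 and 0.08 for Scap. By the mean of both libraries Scap lay at percentile 95.1 of all genes and Insig2 at 73.2. The INSIG genes, both higher periportally, thus differed in this measure, and with each other they correlated at -0.05 in Tom- and -0.01 in Tom+ with noise subtracted. Stard4 followed the enzymes (0.24 and 0.25). Npc1 (-0.13 and -0.08) and Lcat (-0.10 and -0.06) leaned against them, and Soat2 was at -0.08 and 0.02. Npc1 and Soat2 went together in each library, at 0.57 in Tom- and 0.52 in Tom+ with noise subtracted, and Scap with Lcat at 0.76 and 0.51.

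To show the size of this shared variation, cells were ranked by their summed early-enzyme content within each position bin and cut into 10 classes of equal size, and the 10 squalene and late enzymes, which had no part in the ranking, were read across them. Their sum rose from 1352.7 CPM in the lowest class to 2663.2 CPM in the highest in Tom-, and from 1301.6 to 2840.5 CPM in Tom+. Those are ratios of 1.97 and 2.18, and every class lay above the one before it in both libraries. The ranking weighed each early enzyme by its UMIs, most of which came from Hmgcs1 and Fdps. Of the 10 genes 9 passed 1.5-fold in each library, all but Ebp, against 0.514% of all genes in Tom- and 0.927% in Tom+.

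Sqle had the largest step of them in both libraries, with log2 ratios of the highest over the lowest class of 1.5 in Tom- and 2.06 in Tom+. Msmo1 (1.48 and 1.62), Nsdhl (1.38 and 1.58), Fdft1 (1.37 and 1.47) and Lss (1.28 and 1.61) came next, and Ebp was at 0.24 and 0.26. In the highest class Insig1 stood at 1.32 and 1.47 times its level in the lowest, Stard4 at 1.44 and 1.56 times, and Srebf2 at 1.5 and 1.45 times. Npc1 stood at 0.751 and 0.912 of its level in the lowest class, while Insig2 was at 0.905 and 1.06.

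Depth differed between the classes without a steady rise. The lowest class was the shallowest, with a median of 23940 UMIs in Tom- and 29975 in Tom+, against 32280 and 34280 in the highest. Medians were largest between the ends, at 34955 in class 5 of Tom- and 37427 in class 7 of Tom+. When every cell was thinned to 10000 UMIs, leaving out 423 Tom- and 412 Tom+ cells that were shallower, the ratios of the summed genes were 1.77 and 1.92. Sc5d then fell short of 1.5-fold in Tom- (log2 0.41). Alb, the main transcript of the hepatocyte, also rose across the classes, 1.24-fold in Tom- and 1.13-fold in Tom+, and the part of that in the pathway's slope was not tested.

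**Figure D3:**
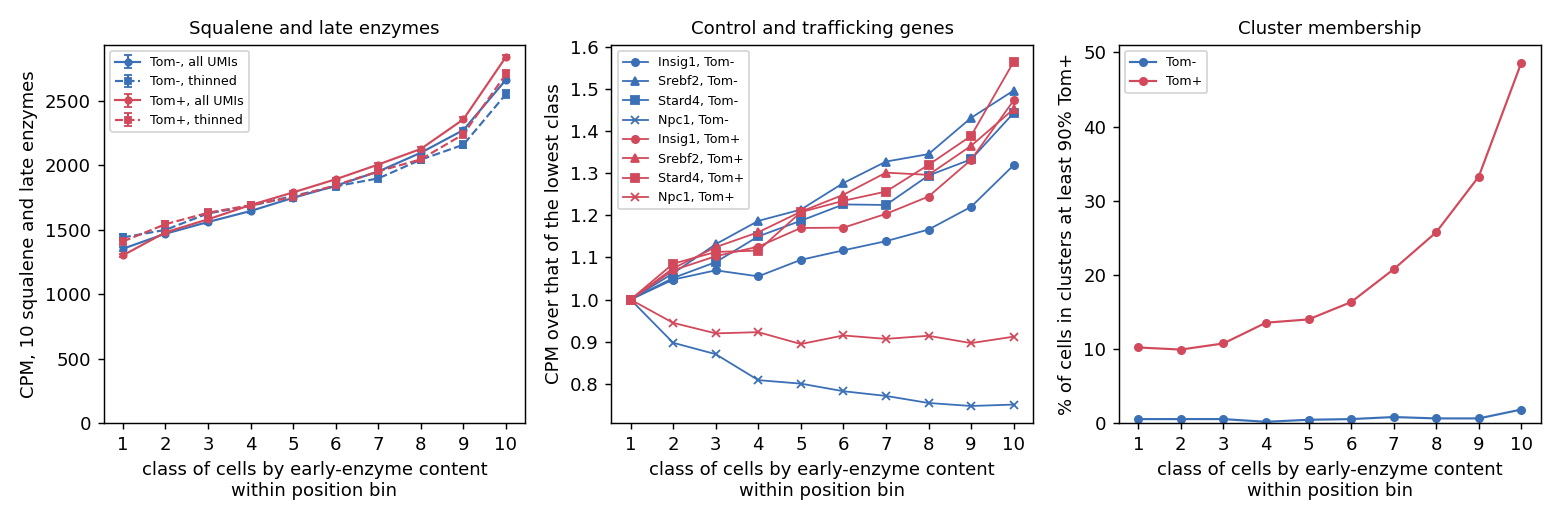
Hepatocytes of each library in 10 equal classes by summed content of the 7 early enzymes within position bin (horizontal axes, 1 lowest to 10 highest). Left, CPM of the 10 squalene and late enzymes at full depth (solid) and thinned (dashed) with 95% counting intervals. Middle, CPM of 4 control and trafficking genes over that of the lowest class. Right, percent of cells in the clusters at least 90% Tom+. In the highest class the later enzymes reach 2663.2 CPM in Tom- and 2840.5 CPM in Tom+, and the Tom+-dominated clusters hold 48.6% of the Tom+ cells.

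The third question was whether Tom+ cells differ from Tom- cells at the same position. The mean of the CPM over the 8 bins was compared, each bin weighted equally, and a gene was counted past 1.25-fold. Among 25 members, 1 was higher in Tom+ (Lss), against 1.87% of all genes, and 0 were lower, against 0.503%. The median log2 ratio of the members was 0.06 beside -0.01 for all genes. Summed over the 17 enzymes, matched content was 2816.9 CPM in Tom- and 3021 CPM in Tom+, a ratio of 1.07. Matching left some difference in position genes: Cyp2f2 was 1.29-fold higher in Tom+ (single bins from log2 -0.45 to 0.76) and Glul 1.14-fold (-0.20 to 0.84), and in the clusters at least 90% Tom+ they were 2.17-fold and 1.38-fold higher. The part of this in the ratios was not tested.

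Lss (chr10:76531588-76557138, plus strand) was at 39.5, 34.6, 36.8, 44.4, 49.9, 53.7, 52.3 and 52.1 CPM in the bins of Tom- and at 53.1, 53.7, 50.7, 53.7, 65.0, 63.7, 61.5 and 64.0 CPM in those of Tom+. Tom+ lay above Tom- in all 8 bins, most at the pericentral end. Its matched ratio was 1.28 (log2 0.36, 0.33 to 0.39). The call was close to the limit: the log2 ratio was 0.31 with cells thinned to equal depth, 0.32 as a mean over cells and 0.26 without the clusters that were at least 90% Tom+, each short of 1.25-fold. With those clusters left out of both libraries and the bins cut again, it was Scap (0.32) that just passed the limit in its place.

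Below the fold but higher in Tom+ in all 8 bins were Scap (0.30), Fdps (0.25), Npc1 (0.24), Lcat (0.22), Sqle (0.19), Ebp (0.18), Msmo1 (0.17), Fdft1 (0.17) and Pmvk (0.15). Insig1 and Stard4 were lower in all 8 bins, by log2 0.05 and 0.08. Bins of 1 library are not replicates, so this evenness speaks of position and not of mice. The share of all genes with the same sign in all 8 bins was not counted, so the evenness is not shown to be particular to the members. The lowest matched ratio was that of Nsdhl, at -0.11. Matching mattered most for the genes with a gradient. Without it Insig2 was at -0.59 and with it at -0.09, Insig1 went from -0.23 to -0.05, and Npc1 from 0.47 to 0.24.

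Some of the Tom+ cells clustered apart from the Tom- cells. Of the 13 hepatocyte clusters 2 held at least 90% Tom+ cells, 1 of them zone 3-like and 1 zone 1-like by landmarks, with 2022 Tom+ and 74 Tom- cells together. They made up 20.3% of Tom+ hepatocytes and were marked by Dbp, a clock output factor, at 69.8 and 66.1 CPM. The clusters were drawn from the variable genes of both libraries together, without integration. As the number of mice is not known, a kind of Tom+ cell and single mice in that library cannot be told apart. The clusters were picked by their share of Tom+ cells, so the values below describe them and test nothing.

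In these cells 11 of 25 members were more than 1.25-fold above all Tom- cells at matched position, against 15.7% of all genes, and 0 were lower, against 3.69%. The 11 were Acat2, Pmvk, Idi1, Fdps, Fdft1, Sqle, Lss, Msmo1, Dhcr7, Npc1 and Soat2. Their median shift over the 25 members was 0.23 on the log2 scale, beside 0.09 for all genes. Fdps stood highest, at 516 CPM against 306 CPM in Tom- (1.69-fold), followed by Lss at 71.3 against 45.4 CPM (1.57-fold), Npc1 at 256 against 180 CPM (1.42-fold) and Soat2 at 160 against 113 CPM (1.41-fold). Srebf2 ran the other way, at 185 against 223 CPM, and Insig1 was close to level at 731 against 763 CPM.

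In the remaining 7936 Tom+ cells 0 members were past the fold in either direction, against 1.04% of all genes higher and 0.469% lower. Their median was -0.01. Scap (0.32), Lss (0.26) and Lcat (0.24) stood highest there, and Insig2 lowest (-0.16). Summed enzyme content was 1.23 times that of Tom- in the Tom+-dominated clusters and 1.03 times in the other Tom+ cells, with the early enzymes at 1.35 and 1.01. Such sums weigh genes by their UMIs, and Hmgcs1 and Fdps gave most of the early ones. In the Tom+-dominated clusters Fdps was at 1.69, and the other early enzymes lay between 1.06 (Mvk) and 1.31 (Acat2 and Pmvk). Across the classes of early-enzyme content, these clusters took 10.2% of the Tom+ cells in the lowest class and 48.6% in the highest. Per3, a core clock gene, was at 48.0 CPM in them and 14.7 CPM in the other Tom+ cells. Over cells at one position, with counting noise left in, Dbp correlated with the enzyme mean at -0.04 and -0.00 and Per3 at -0.00 and 0.04. In the highest class of early-enzyme content Dbp stood at 0.70 times its level in the lowest in Tom- and at 1.03 times in Tom+. The part of the clock genes in the shift was not tested.

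**Figure D4:**
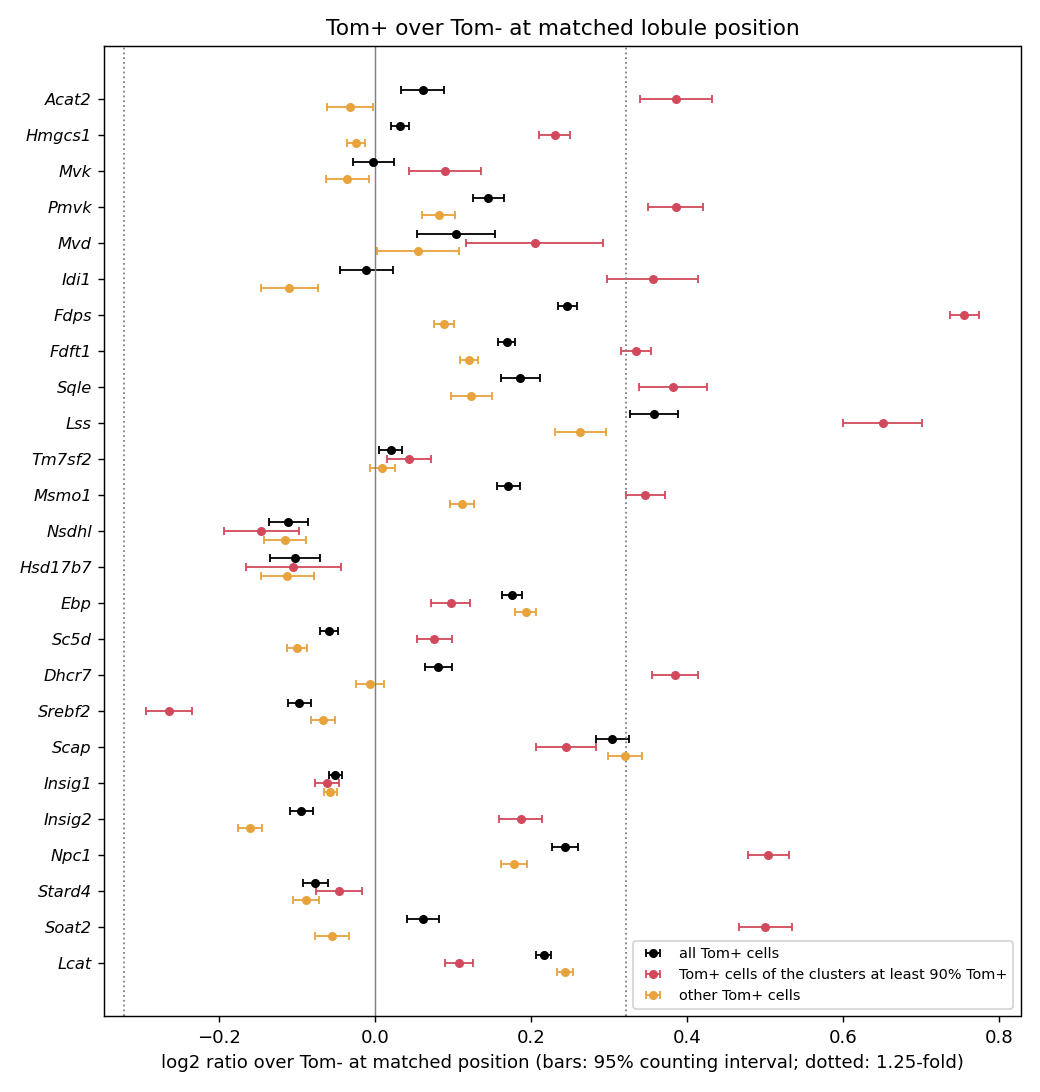
Log2 ratio of Tom+ over Tom- hepatocytes at matched lobule position for the 25 members (horizontal axis), for all Tom+ cells (black), those of the clusters at least 90% Tom+ (red) and the other Tom+ cells (orange). Bars are 95% counting intervals, dotted lines mark 1.25-fold. The red points pass the line for 11 genes, most for Fdps at 0.76, while the orange points stay within the lines, Scap nearest at 0.32.

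The neighbouring pathways were read from lists of 41 genes, of which 38 passed the minimum. Their counts stand beside 4.88% (Tom-) and 4.93% (Tom+) of all genes past the fold periportally and 9.48% and 11.2% pericentrally. In fatty acid synthesis, of 7 genes 4 were higher periportally past 1.5-fold in each library (Fasn, Acly, Acaca and Scd1) and 0 pericentrally. Acly, which makes the cytosolic acetyl-CoA for both pathways, had a log2 ratio of 2.05 in Tom- and 2.02 in Tom+, and Scd1, the desaturase, of 1.33 and 1.52. Of the 7 genes 6 also co-varied with the cholesterol enzymes at 0.1 or more in each library, against 1.4% of all genes in both. Acly (0.30 and 0.39), Scd1 (0.29 and 0.27) and Elovl6 (0.17 and 0.27) were among them. So were Fasn (0.17 and 0.25), Me1 (0.13 and 0.17) and Acaca (0.11 and 0.25). Srebf1, which encodes the regulator SREBP-1, did not (-0.07 and -0.02). Along the lobule Srebf1 was nearly level (-0.19 and 0.04).

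Of the 8 genes of bile acid synthesis 3 were past the fold pericentrally in each library (Cyp7a1, Cyp27a1 and Hsd3b7) and 1 periportally (Cyp8b1). Cyp7a1, the rate-limiting enzyme of the route from cholesterol to bile acids, had the steepest slope of all genes on these lists, at -5.26 in Tom- and -4.60 in Tom+. Cyp8b1, the 12-alpha-hydroxylase, was also higher in Tom+ at matched position (log2 0.54), but not in the Tom+-dominated clusters (-0.26), against 0.64 in the other Tom+ cells. It was the only one of the 8 to co-vary with the cholesterol enzymes at 0.1 or more in both libraries (0.105 and 0.126). Hsd3b7 went the other way in both (-0.18 and -0.15).

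Of the 5 tested genes of efflux and LXR signalling Abcg5, a canalicular sterol exporter, was past the fold periportally (1.28 and 0.86) and Nr1h2, an LXR receptor, pericentrally (-0.65 and -0.62). Among 10 sterol-handling genes Gramd1a, a carrier between plasma membrane and endoplasmic reticulum, was past it pericentrally (-1.49 and -1.55). On the branch list of 8 genes, Aacs (1.25 and 0.80) and Acss2 (0.88 and 0.65), which activate acetoacetate and acetate, were past it periportally, Tmem97, a sterol-regulated membrane protein, pericentrally (-0.71 and -0.62), and Ggps1, the geranylgeranyl diphosphate synthase, pericentrally in Tom+ (-0.47 and -0.69). Acss2 had a correlation with the enzyme mean of 0.35 and 0.39, and Aacs (0.20 and 0.25) and Tmem97 (0.20 and 0.25) also passed 0.1 in both libraries. Elovl6, a fatty acid elongase, was past 1.25-fold in Tom+ at matched position (log2 0.33), with 0.91 in the Tom+-dominated clusters and 0.16 in the other Tom+ cells. In those clusters 6 of the 7 fatty acid genes were past 1.25-fold higher (median log2 0.48), against 15.7% of all genes. So were 2 of 8 bile acid, 3 of 5 efflux, 2 of 8 branch and 2 of 10 sterol-handling genes. Among the last, 1 was lower, against 3.69% of all genes.

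Ranked by mean correlation with the enzymes, genes outside the members included Acss2 (rank 4), Acly (rank 5), Alb (rank 6; 0.35 and 0.24), Scd1 (rank 7), Aqp8, a water channel of the hepatocyte (rank 8; 0.26 and 0.24), and Rdh11, a retinol dehydrogenase (rank 10; 0.23 and 0.27).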

How the data were processed

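The authors counted UMIs of probe pairs per gene and cell with Cell Ranger 7.2.0 against mm10, and the deposited files hold these raw counts for 1 Tom- library (23220 barcodes, 681279005 UMIs) and 1 Tom+ library (16339 barcodes, 715333889 UMIs). A probe count reads a few short sites per gene, so it does not measure the whole transcript.

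Cells with 2000 to 10000 genes, at most 100000 UMIs and a mitochondrial share of at most 0.05 were kept (20159 and 13378). Cells of both libraries were clustered together, without integration, with scanpy 1.11.5 and leidenalg 0.10.2 (2000 variable genes, 30 components, 20 neighbours, resolution 0.8). Clusters of low gene number or rich in Ptprc, Dcn or Pecam1 were left out, which removed 46.0% of Tom- and 25.6% of Tom+ cells. The Scrublet doublet score was used only in an alternative. Counts were summed over cells per library and position bin and given as CPM, with 95% Poisson intervals and 0.5 UMIs added for ratios. With 1 library per group no test was possible. Folds of 1.5 (gradients and content classes) and 1.25 (Tom+ over Tom-) and a correlation of 0.1 set the counts.

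The members and gene lists were chosen with earlier results of these data known. Members past a fold or with the highest co-variation were given in full, and from outside them list genes past a fold, Dbp, Per3 and the 10 genes with the highest mean correlation, of which 4 (ranks 1, 2, 3 and 9) are not reported here. The scripts were tested on simulated data. Promoter windows came from RefSeq and gene coordinates from GENCODE. The work ran in Python 3.11.15 with scikit-learn 1.9.0, scipy 1.17.1, numpy 2.4.6, matplotlib 3.10.9 and pandas 2.3.3.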

Additional observations from a re-analysis of the deposited data

How the results depend on the processing

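No paired analysis was possible because only 1 library stands for Tom- and 1 for Tom+, and leaving out replicates does not apply. Among the counts and medians that answer the comparisons, 101 values under alternatives stayed close to the reported one and 19 moved. The median Tom+ over Tom- ratio of the members was the one that changed sign, to just below 0.

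The number of members higher in Tom+ (1) was 0 with cells thinned, 0 as a mean over cells, 2 with no matching on position and 2 with zone-like clusters in place of bins. With no matching these were Npc1 (log2 0.47) and Scap (0.35), while Lss (0.24) fell short. It stayed at 1 without the clusters at least 90% Tom+, but with Scap in place of Lss. The number lower (0) was 1 with no minimum CPM, where Mylip enters, and 1 with no matching. The members' median log2 ratio (0.06) was 0.081 with clusters of low gene number kept, 0.079 without 3 clusters led by genes of other cells (chosen after seeing the data), -0.004995 without the clusters at least 90% Tom+ and 0.15 with zone-like clusters. For the Tom+ gradient, 1 member was higher pericentrally as a mean over cells, and 4 were higher periportally without the clusters at least 90% Tom+. Median-of-ratios scaling, chosen after seeing the data, gave 6 periportally and 0 pericentrally. The median correlation of the enzymes was 0.217 in Tom- and 0.216 in Tom+ with cells thinned, 0.746 and 0.745 with counting noise taken off, and 0.355 in Tom+ without the clusters at least 90% Tom+. Except where the construction shows it, the cause was not tested. Leaving out barcodes found in both libraries, also chosen after seeing the data, moved none of these.

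For single genes, 941 values stayed close and 328 moved. With 1 library per group, the sort, the library and the mice cannot be told apart, and counting intervals do not cover them. Low counts limit Npc1l1 and Mylip most, whose gradients and correlations were not read.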

Other observations

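Mylip, scarce in hepatocytes, was read more in some of the clusters that had been left out, the others not being examined for it. It stood at 73.2 CPM in 420 Tom- cells and 82.0 CPM in 154 Tom+ cells of a Pecam1-rich cluster of low gene number, at 46.8 and 52.6 CPM in 2 clusters of low gene number past the limit for Ptprc and at 18.4 and 15.7 CPM in a Dcn-rich cluster, against 1.35 and 0.97 CPM in hepatocytes. Alb in these clusters lay between 94497 and 133400 CPM, close to its level in hepatocytes, so they carried hepatocyte RNA as well.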
